A study of Moesziomyces aphidis with 9 samples.

Results

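A set of 25 genes of the yeast-like smut fungus Moesziomyces aphidis, out of 6952 in the files, stood at a low level in glucose cultures and rose strongly when soybean oil was present. They were chosen on the gene expression values of 6 libraries, 3 per medium, given as RPKM (reads scaled to gene length and to library size). A gene qualified if its 6 values averaged at least 10 RPKM, with a glucose mean under 5 RPKM, a log2 fold change of at least 2 and every soybean oil library above every glucose library. The log2 fold change is that of the medium means, soybean oil over glucose, after adding 1 RPKM to each. These limits were met by 37 genes, and 12 of them were set aside because they lay in a run of 3 or more neighbouring identifiers that rose together. The 25 that were left were not themselves part of such a run. Because these values chose the genes, their levels and fold changes in the 6 libraries are a description and carry no test.

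Cells of strain DSM70725 were cultured at 30 °C for 114 h. The soybean oil medium contained yeast extract, 40 g/l glucose and an additional 70 g/l soybean oil, and its cells are labelled as induced filaments. The glucose medium had the same base and the same glucose without the oil, and its cells are labelled as blastospores that were not induced. Both media thus held glucose, and the oil and the cell form changed together, so an effect of the oil and an effect of the growth form cannot be told apart. Unstranded 50 bp libraries of replicates 1 to 3 of each medium made up the main comparison. A stranded library of replicate 1 of each medium and a paired-end library of soybean oil replicate 2 with 95 bp reads were not used to choose the genes. The replicate titles carry the tag br, which the labels do not spell out, and separate cultures are not stated, so differences between replicates may be technical in part.

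Soybean oil is mostly triacylglycerol. Fungi that grow on it cleave it outside the cell with lipases, take up the fatty acids and shorten them by beta-oxidation in peroxisomes, and the glyoxylate cycle lets them build sugars from the acetyl-CoA that results. In this fungus and its relatives, shortened fatty acids are also joined to mannosylerythritol to make secreted glycolipid surfactants, the mannosylerythritol lipids, whose synthesis genes lie in a cluster. The files list genes by identifier and do not pair them with names or products, so no role can be given to any of the 25. They are numbered here from 1 to 25 in falling order of log2 fold change, and 2 are also given by identifier: gene 1 is PaG_10513 and gene 5 is PaG_10058.

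The 6 main libraries held 8108888 to 11100455 reads, of which 97.2% to 98.1% lay in genes. Read numbers per gene were worked out from the RPKM values. Across all 6486 genes that averaged at least 1 RPKM (the tested genes), the median log2 fold change was -0.07. Of these genes, 0.57% met the limits with runs included, 1.9% had a log2 fold change of at least 2 without overlap of the media, and 27.3% lay higher with oil in every library. limma, a linear model fitted over the whole table, called 21.5% of genes higher and 28% lower at a Benjamini-Hochberg adjusted p under 0.05, and all 25 genes were among those called higher, as follows from how they were chosen.

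Together the 25 genes took 0.286%, 0.339% and 0.318% of the reads in genes in soybean oil replicates 1, 2 and 3, against 0.0137%, 0.0116% and 0.0118% in glucose replicates 1, 2 and 3. The means were 0.314% ± 0.0268 with oil and 0.0124% ± 0.00118 on glucose (SD, n = 3 each). Their log2 fold changes ran from 2.11 to 5.82 with a median of 3.79. A bulk library does not show whether more cells carried these transcripts or each cell carried more of them.

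**Figure D1:**
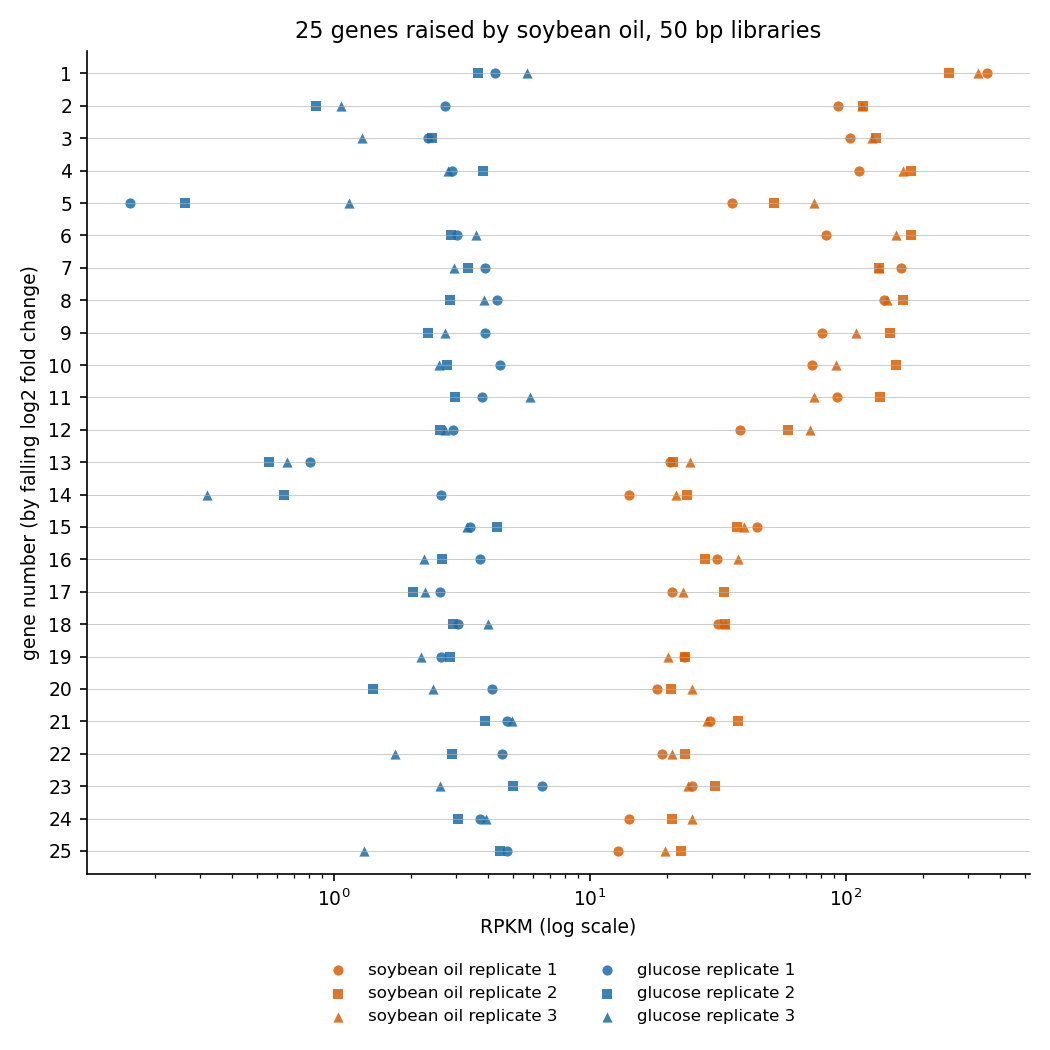
RPKM of each of the 25 genes (log scale) in the 3 soybean oil libraries (orange) and the 3 glucose libraries (blue), with genes ordered by falling log2 fold change and marker shape giving the replicate. The media are apart in every gene by the choice of genes; genes 1 to 12 have oil means of 54.3 to 312 RPKM and genes 13 to 25 of 18.5 to 40.8 RPKM.

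PaG_10513, gene 1, had both the largest log2 fold change and the highest level with oil. It stood at 355, 253 and 327 RPKM in soybean oil replicates 1, 2 and 3, against 4.27, 3.66 and 5.68 RPKM in glucose replicates 1, 2 and 3. The means were 312 ± 52.9 RPKM with oil and 4.54 ± 1.04 RPKM on glucose (SD, n = 3 each), which is 68.7-fold higher with oil and a log2 fold change of 5.82. Its lowest oil library was 44.5 times its highest glucose library. It supplied 21.8%, 13.1% and 18.04% of the reads of the 25 genes in soybean oil replicates 1, 2 and 3, so no single gene carried most of the group's reads.

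PaG_10058, gene 5, came closest to being absent on glucose. It had 36.0, 52.2 and 74.8 RPKM in soybean oil replicates 1, 2 and 3, against 0.159, 0.262 and 1.14 RPKM in glucose replicates 1, 2 and 3. These glucose values rest on 2, 3 and 13 reads, while the oil values rest on 463, 732 and 766 reads. The means were 54.3 ± 19.5 RPKM with oil and 0.521 ± 0.540 RPKM on glucose (SD, n = 3 each). By their ratio it was 104-fold higher with oil, the highest such ratio among the 25. Its log2 fold change of 5.18 ranks lower because 1 RPKM was added to each mean. The spread on glucose was as large as the mean, with replicate 3 above the other two.

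Genes 2, 3 and 4 followed gene 1 in log2 fold change. Gene 2, a short gene of 520 bp, had 93.2, 116 and 116 RPKM in soybean oil replicates 1 to 3, against 2.70, 0.849 and 1.07 RPKM in glucose replicates 1 to 3. Gene 3 had 104, 131 and 127 RPKM with oil, against 2.33, 2.41 and 1.28 RPKM on glucose. Gene 4 had 112, 180 and 168 RPKM with oil, against 2.89, 3.83 and 2.79 RPKM on glucose. In all of these soybean oil replicate 1 was the lowest oil library, and the lowest oil value was 29.3 to 43.2 times the highest glucose value.

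Genes 6 to 12 reached means of 56.9 to 151 RPKM with oil, against 2.74 to 4.20 RPKM on glucose, with log2 fold changes of 3.96 to 5.08. Gene 7, with 164, 135 and 134 RPKM in soybean oil replicates 1 to 3 against 3.90, 3.32 and 2.94 RPKM in glucose replicates 1 to 3, was fairly even between oil libraries. Gene 8 was similarly even, with 141, 167 and 144 RPKM with oil against 4.34, 2.84 and 3.86 RPKM on glucose. Gene 10 was uneven, with 73.9, 157 and 91.4 RPKM with oil, against 4.46, 2.77 and 2.57 RPKM on glucose. Gene 6 was uneven too, at 83.5, 179 and 156 RPKM with oil, against 3.04, 2.86 and 3.59 RPKM on glucose.

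Genes 13 to 25 rose to lower levels, with oil means of 18.5 to 40.8 RPKM, glucose means of 0.675 to 4.69 RPKM and log2 fold changes of 2.11 to 3.79. Gene 13 was the second gene with a glucose mean under 1 RPKM: it had 20.5, 21.1 and 24.7 RPKM with oil, against 0.807, 0.560 and 0.657 RPKM on glucose. Gene 18 was the most even of all with oil, at 31.5, 33.8 and 33.7 RPKM, against 3.04, 2.91 and 4.01 RPKM on glucose. At the other end, gene 25 had 12.9, 22.7 and 19.7 RPKM with oil, against 4.76, 4.44 and 1.31 RPKM on glucose, so its lowest oil library was only 2.71 times its highest glucose library.

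Reads of all 25 genes were found on glucose, though few in some. None of the 25 genes had 0 reads in any glucose library, and 22 had at least 10 reads in every glucose library. The same counts were not made over all tested genes. No background level was set, so weak expression was not told apart from stray reads. The exceptions were genes 2, 5 and 14. Gene 14, the shortest at 346 bp, had 9, 2 and 1 reads in glucose replicates 1, 2 and 3. Genes 5 and 14 were the only ones with a glucose library of 3 reads or fewer. Per gene and library there were 50 to 6219 reads with oil (median 672) and 1 to 141 reads on glucose (median 46).

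The members nearest to the limits show how much the count depends on them. The lowest mean over the 6 libraries inside the set was 10.6 RPKM, and the highest outside with the other limits met was 9.11 RPKM. The highest glucose mean inside was 4.69 RPKM, and the nearest gene outside had 5.005 RPKM and a log2 fold change of 2.33. Among genes that met the other limits, 0 had a log2 fold change under 2, and 0 failed for overlap alone. The limits on the mean over the 6 libraries and on the glucose mean already force a high oil mean. Both counts therefore follow in part from the other limits.

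The 3 oil libraries did not treat all 25 genes alike. Soybean oil replicate 2 was the highest oil library in 16 genes (64.0%) and replicate 1 the lowest in 17 (68.0%), where these shares were 45.7% and 53.2% of all tested genes. The coefficient of variation (SD over mean) across the oil libraries had a median of 16.04% and ran from 3.88% in gene 18 to 40.9% in gene 10. For the 4191 tested genes whose oil mean lay within the range of the 25, the median was 10.1% with quartiles of 6.29% and 15.7%. Genes 5, 6 and 10 (12% of the 25) differed more than 2-fold between oil libraries, each with replicate 1 lowest, and 375 of the 6486 tested genes (5.78%) did so. On glucose the coefficient of variation had a median of 22.9%, against 13.6% over all tested genes, and reached 104% in genes 5 and 14, both with few reads. Glucose replicate 1 was the highest glucose library in 14 of the 25 genes (56.0%), against 36.6% of all tested genes. Glucose replicate 2 was the lowest in 13 of the 25 genes (52.0%), against 19.2% of all tested genes, and glucose replicate 3 in 11 (44.0%), against 60.6%. The rule used these glucose values and kept only low ones, where few reads widen the spread. All tested genes had a median glucose mean of 34.1 RPKM, and genes of a similar glucose level were not compared.

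**Figure D2:**
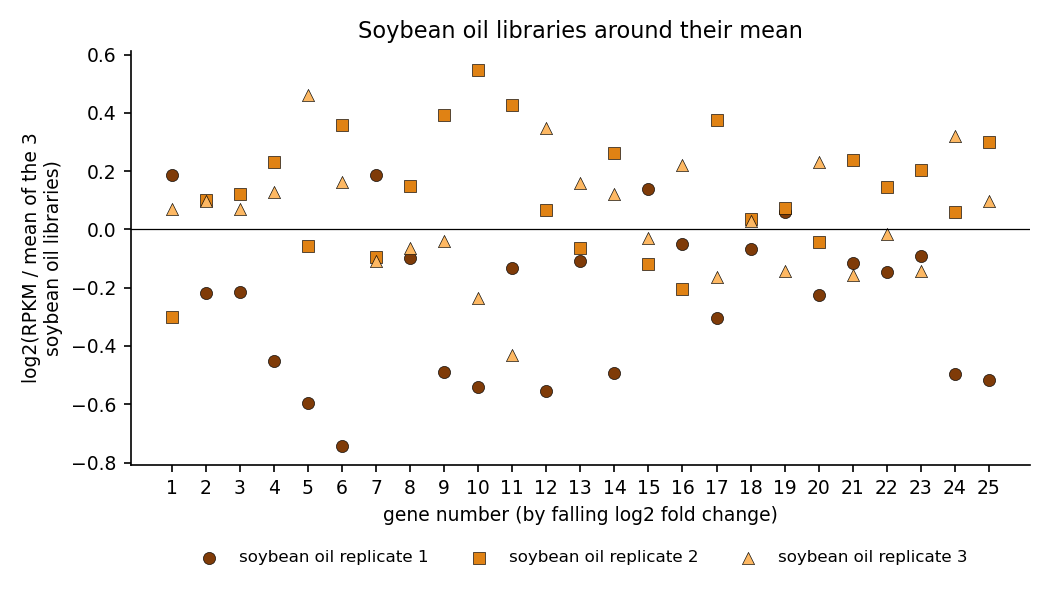
log2 ratio of each soybean oil library to the mean of the 3 soybean oil libraries for the 25 genes, with genes ordered by falling log2 fold change. Replicate 1 lies lowest in 17 genes, while gene 18 shows nearly equal values and gene 10 the widest spread.

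The stranded pair, a different library preparation of replicate 1, asked whether the rise appears in libraries that took no part in the choice. All 25 genes were higher with oil in it, against 30.4% of all 6484 genes compared. At least 4-fold higher were 18 of 25 genes (72.0%), where 1.53% of all genes were, and at least 2-fold higher were 23 (92.0%), where 4.66% of all genes were. With 1 library per medium there is no test, and the labels give this pair the number of a replicate that helped to choose the genes. The median log2 fold change in the pair was 3.28, against -0.35 over all genes. After scaling the pair so that the median of all genes was 0, 18 of the 25 were again at least 4-fold higher. The deposited stranded values include an added 1, which was subtracted before levels are given.

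In the stranded libraries PaG_10513 had 116 RPKM with oil and 1.20 RPKM on glucose, a log2 fold change of 5.73. PaG_10058 had 48.7 RPKM with oil and 0.20 RPKM on glucose, a log2 fold change of 5.37. Gene 3 had 148 RPKM with oil and 2.00 RPKM on glucose, a log2 fold change of 5.63. In the unstranded libraries the log2 fold changes of PaG_10513, PaG_10058 and gene 3 were 5.82, 5.18 and 5.34.

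Other genes rose less in the stranded pair. Gene 2 reached 27.7 RPKM with oil and 1.94 RPKM on glucose, a log2 fold change of 3.28 beside 5.43 in the unstranded libraries. Gene 20 had 8.70 RPKM with oil and 5.20 RPKM on glucose, a log2 fold change of 0.65 beside 2.60. Gene 25 had 7.77 RPKM with oil and 3.63 RPKM on glucose, a log2 fold change of 0.92 beside 2.11. Genes 20 and 25 were the members under 2-fold. Across the 25 genes, the 2 sets of fold changes had a Pearson correlation of 0.89 and a Spearman correlation of 0.88. This is a description over genes of shared samples, since the unstranded values include replicate 1 and the members span the range that the rule set.

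**Figure D3:**
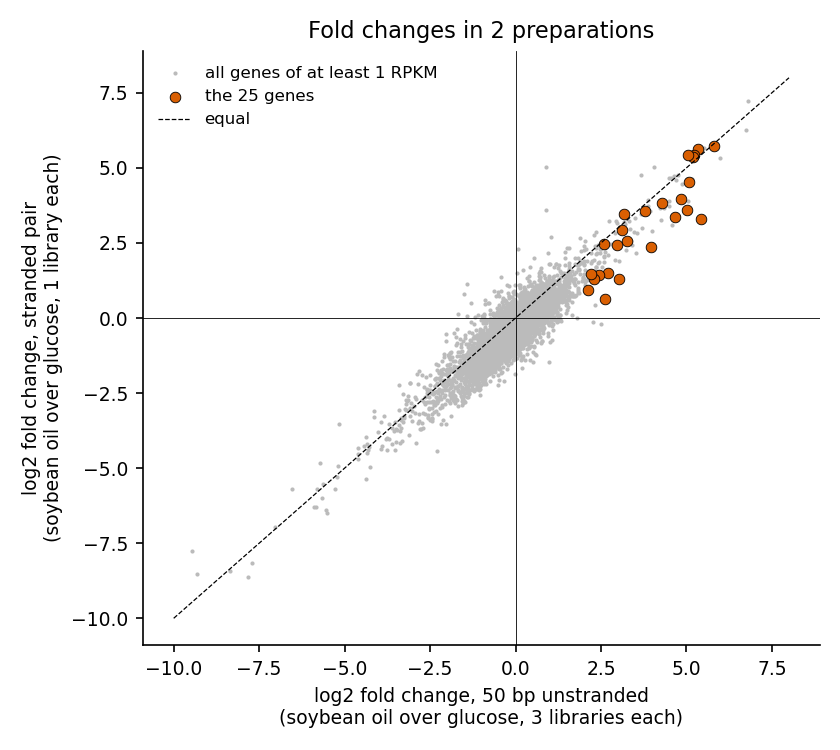
log2 fold change (soybean oil over glucose) in the stranded pair against that in the 6 unstranded libraries, for all genes of at least 1 RPKM (grey) and the 25 genes (orange), with the dashed line marking equal values. All 25 genes lie above 0 on the vertical axis, and genes 20 and 25 lie lowest, at 0.65 and 0.92.

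The paired-end library carries the label of soybean oil replicate 2 and held 31573726 reads, more than any 50 bp library. The labels do not say whether both libraries of this number were made from the same RNA. In the paired-end library the 25 genes were mostly weaker than in the 50 bp library. They took 0.167% of the reads in genes in the paired-end library, against 0.339% in the 50 bp library. On the log2(RPKM + 1) scale, 22 of 25 genes were lower in the paired-end library, where 31.3% of all tested genes were. At least 2-fold lower were 13 genes (52.0%), where 4.41% of all tested genes were, and at least 2-fold higher was 1 gene (4%), where 15.7% were. The median difference was -1.04 for the 25 genes and 0.28 for all tested genes.

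The 50 bp library of replicate 2 took part in the choice and was often the highest. Set against the mean of soybean oil replicates 1 and 3, 11 genes were at least 2-fold lower in the paired-end library, where 4.86% of all tested genes were. Replicates 1 and 3 took part in the choice too, so high oil values were favoured in every oil library used here for comparison. It lay below all 3 oil libraries of 50 bp in 20 of the 25 genes, against 22.4% of all tested genes. There is 1 paired-end library, so none of these differences was tested across replicates. Read length and pairing differ between the libraries as well, and their part in the result was not tested.

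The gap was widest in genes 5, 9, 10 and 12. PaG_10058 had 0.0251 RPKM in the paired-end library, which is 1 read, against 52.2 RPKM and 732 reads in the 50 bp library of soybean oil replicate 2. The ratio was 0.00048, with an exact 95% interval of 1.21e-05 to 0.00268 for counting error only. In the stranded oil library of replicate 1 the same gene stood at 48.7 RPKM. Gene 9 had 6.08 RPKM in the paired-end library and 149 RPKM in the 50 bp library. Gene 10 had 12.2 RPKM in the paired-end library and 157 RPKM in the 50 bp library. Gene 12 had 3.98 RPKM in the paired-end library and 59.6 RPKM in the 50 bp library. These 4 genes were at least 8-fold lower in the paired-end library, which held for 30 of the tested genes (0.463%).

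A few of the 25 genes went the other way or barely differed. Gene 20 had 62.4 RPKM in the paired-end library and 20.7 RPKM in the 50 bp library, while gene 13 had 41.9 RPKM in the paired-end library and 21.1 RPKM in the 50 bp library. Gene 19 had 42.9 RPKM in the paired-end library and 23.5 RPKM in the 50 bp library. Gene 2 was nearly equal, with 108 RPKM in the paired-end library and 116 RPKM in the 50 bp library. PaG_10513 was lower, at 78.8 RPKM in the paired-end library against 253 RPKM in the 50 bp library.

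Against glucose, most of the 25 genes stood higher in the paired-end library. The choice required low glucose values, so it fixed the following shares in part. It lay above all 3 glucose libraries in 24 of 25 genes, where it did so in 56.8% of all tested genes, and PaG_10058 was the exception. At least 4-fold above the glucose mean on the log2(RPKM + 1) scale were 15 genes (60%), where 2.88% of all tested genes were. At least 2-fold above it were 21 genes (84.0%), where 14.8% of all tested genes were, and genes 5, 9, 12 and 16 were not. Across the 25 genes, the difference of the paired-end library from the mean of the 3 oil libraries had a Pearson correlation of -0.63 (Spearman -0.58) with the coefficient of variation of those oil libraries. Both measures share the oil libraries, and this is a description over 25 genes. With gene length the correlation of the paired-end difference from the mean of oil replicates 1 and 3 was 0.23 (Spearman 0.16).

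**Figure D4:**
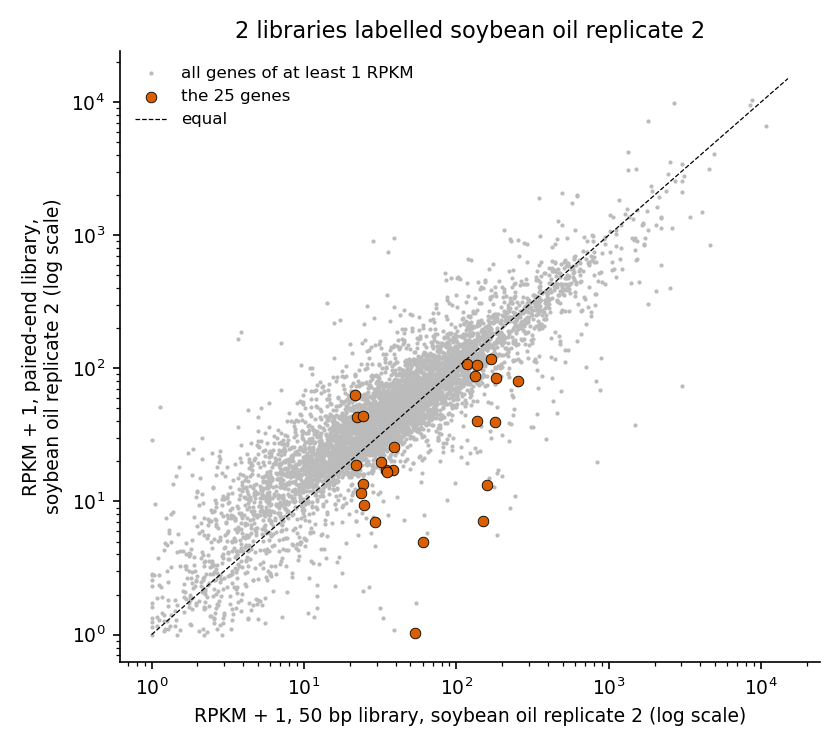
RPKM + 1 in the paired-end library against RPKM + 1 in the 50 bp library of soybean oil replicate 2 (both axes on a log scale), for all genes of at least 1 RPKM (grey) and the 25 genes (orange), with the dashed line marking equal values. Of the 25 genes 22 lie below the line, and PaG_10058 is the point at the bottom, with 0.0251 RPKM in the paired-end library.

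The genes that met the same limits within runs of neighbours are the set most like this one. The 12 run genes had a median log2 fold change of 4.61 (2.52 to 6.80), and the 25 genes one of 3.79. In the stranded pair the medians were 3.28 for the 25 genes and 4.64 for the run genes. In the paired-end library against the 50 bp library of replicate 2 they were -1.04 for the 25 genes and -2.77 for the run genes, of which 8 of 12 were at least 2-fold lower. The lower paired-end level was therefore not seen in the scattered genes alone. The spread between oil libraries had a median coefficient of variation of 16.04% in the 25 genes and 25.01% in the run genes. Soybean oil replicate 1 was the lowest oil library in 17 of the 25 genes (68.0%) and in 9 of the 12 run genes (75%). Both sets were chosen on the same values, so the difference between them was not tested.

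By identifier order the 25 genes were spread out, as the removal of runs favours. Successive members were 264.5 identifiers apart in the median, from 4 to 3535. The widest gap spanned the change to the number series above 10000. The files hold 6952 genes, so numbers in this gap may be unused. Of the 25 genes, 5 (20%) belonged to the series above 10000, which held 14.5% of all tested genes. Genes 2 and 12 were 4 identifiers apart and genes 3 and 11 were 9 apart. Identifier order was used here in place of genome positions, and how well the one follows the other was not checked.

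The genes with adjacent identifiers mostly did not rise with them. Of the 50 adjacent identifiers, 47 are in the files and 38 averaged at least 1 RPKM. The median log2 fold change of these 38 neighbours was 0.06 (quartiles -0.81 and 0.47). At least 2-fold higher without overlap were 2 neighbours (5.26%), where 6.57% of all tested genes were, and at least 2-fold lower without overlap were 6 (15.8%), where 12.2% of all tested genes were. Both shares are close to those of all genes, and the rule lowers the first by dropping genes in runs. In 23 of 25 genes neither neighbour was at least 2-fold higher without overlap. This count takes a neighbour missing from the files as not higher, and gene 21 had neither neighbour in the files. The rule favours a high count too, and the same count was not made over all genes.

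The widest contrast between a member and an adjacent identifier was at gene 7. Its next identifier was lower with oil, with a log2 fold change of -5.73 and a mean of 37.9 RPKM over the 6 libraries, while gene 7 itself had 5.05. Gene 5 had an adjacent identifier with an abundant transcript of 1074 RPKM, whose log2 fold change was 0.55. Gene 9 had the neighbour with the largest rise, 1.60. Within 3 identifiers, genes at least 4-fold higher were found for gene 16, with a log2 fold change of 3.40 at a distance of 2 and part of a run that was set aside, and for gene 22, with a log2 fold change of 4.56 and 757 RPKM with oil at a distance of 3.

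**Figure D5:**
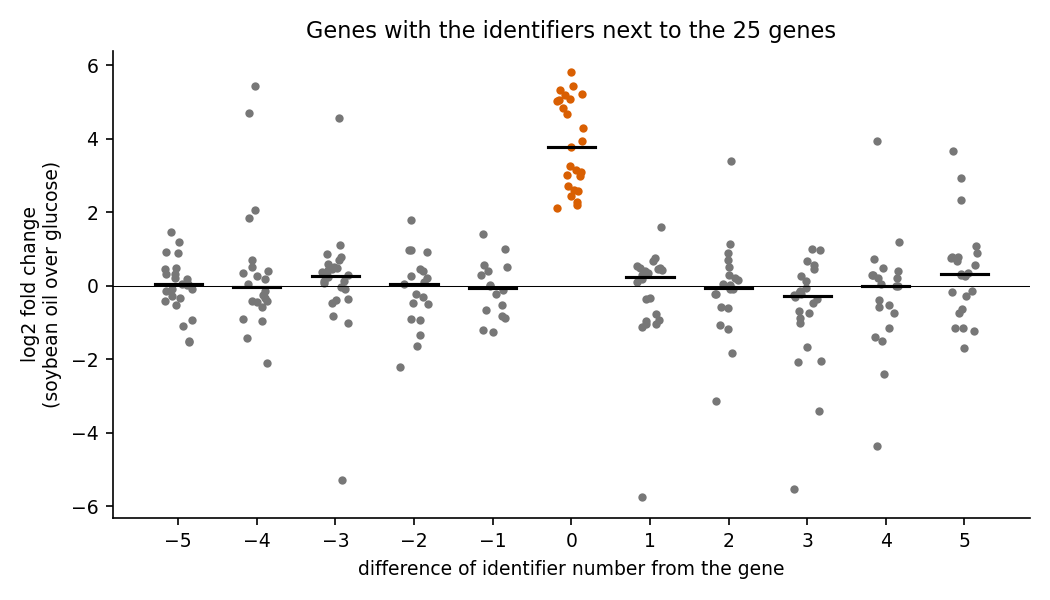
log2 fold change (soybean oil over glucose) of the genes whose identifiers lie up to 5 below or above those of the 25 genes, for genes of at least 1 RPKM, with the 25 genes at 0 (orange) and black bars for medians. The median drops to near 0 at the adjacent identifiers, where the lowest point, at -5.73, is the gene after gene 7.

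Gene lengths took no part in the choice. They ran from 346 to 3129 bp with a median of 1435 bp, against a median of 1702 bp for all tested genes. The 12 genes with oil means of at least 50 RPKM had a median length of 1412 bp and the 13 weaker ones 1809 bp. The median glucose mean was 3.17 RPKM in these 12 genes and 3.05 RPKM in the 13 weaker ones. The median difference of the paired-end from the 50 bp library of replicate 2, on the log2(RPKM + 1) scale, was -1.72 in the 12 genes and -0.86 in the 13. The oil mean that split the genes includes that 50 bp library, so the split fixed this contrast in part. The added 1 RPKM also shrinks differences more in the weaker genes.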

How the data were processed

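Total RNA was sequenced on a HiSeq2000. The deposited gene files hold RPKM values made by the authors. TopHat 1.4.1 is named in the submitters' processing notes. No counter, annotation or genome build was given in the sources used here. Deposited RPKM values of the 7 unstranded libraries are ratios of whole numbers, so library totals, gene lengths and reads were worked out from them. A length that gave whole reads was found for 6952 of 6952 genes (tolerance 1e-06 read). The smallest such length was kept, so length and reads of some genes may be too low by a common factor. The shortest length among the tested genes was 8 bp. Tested on simulated data, all reads of 6890 of 6952 genes and 7 of 7 totals came back. The deposited stranded RPKM values have 2 decimals and none under 1. After subtracting 1, 98.9% of 359 low values with oil and 97.6% of 165 on glucose fell on whole reads (9.4% and 11.9% by chance), against 17.4% and 22.5% without subtraction. The 1 was therefore taken as added and subtracted.

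The rule was applied to the 6 main libraries. The members, comparisons and alternatives were chosen with earlier results of these data known. limma 3.58.1 (R 4.3.3) was fitted to log2(RPKM + 1) with a trend, over the 6486 genes that averaged at least 1 RPKM, for the background share alone. It was also run on simulated data with the same spread set for all genes and changes only in well expressed genes. That run is no check on genes with few reads, and its outcome is not used here. Medians and counts were computed with pandas 2.3.3 in Python 3.11.15. Genes named by identifier were to be the member with the largest log2 fold change and that with the highest oil mean. Both are PaG_10513, and PaG_10058 was added after its values were seen. Planned lists of genes by product could not be used, since the files give no products. The splice junction lists do not name genes and were not used here.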

Additional observations from a re-analysis of the deposited data

How the results depend on the processing

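The members depended most on the limits of the rule: with the glucose mean under 1 RPKM there were 2 genes, under 10 RPKM 41, and with a mean over the 6 libraries of at least 20 RPKM 13. A pseudocount of 5 in place of 1 gave 19 genes, of which 18 were among the 25. Leaving out each library in turn gave 21 to 29 genes, of which 20 to 25 were among the 25. With the paired-end library in place of soybean oil replicate 2 there were 29 genes, of which 22 were among the 25. The median log2 fold change of the 25 genes was 3.79; it was 4.33 with a pseudocount of 0.1 and 2.40 with 5, 3.40 with the paired-end library in place of soybean oil replicate 2 (the cause was not tested), and 3.70 to 3.84 without each library. Their share of reads with oil was 0.257% with the paired-end library in place of replicate 2, and 0.302% to 0.328% without each oil library; on glucose it was 0.0117% to 0.0128%. Over all genes, limma called 1392 genes higher and 1818 lower. With the paired-end library in place of replicate 2 it called 461 higher and 300 lower of 6508 genes. Of the 25 genes it then called 21 higher, which the choice fixed in part, since the other libraries of that fit were used to choose them. Without each library limma called 1049 to 1462 higher and 1368 to 2182 lower. Median-ratio scaling gave 1660 higher and 1739 lower, and quantile normalization 1702 and 1598. Scaling the stranded pair by its median ratio left 18 genes at least 4-fold higher (2.1% of all genes). The same scaling of the paired-end and 50 bp libraries gave 15 genes at least 2-fold lower (7.25% of all genes). Against glucose, 13 to 17 genes were at least 4-fold higher in the paired-end library without each glucose library. With all glucose libraries there were 15, where 2.88% of all tested genes were. The choice required low glucose values and fixed these counts in part, and the share over all genes was not computed without each library. Alternatives for the paired-end library were chosen after seeing the data. The labels do not say whether replicate numbers pair the samples. Same-numbered libraries deviated from their medium means with correlations of -0.187, 0.234 and 0.046, and differently numbered ones with -0.252 to 0.207. Deviations within a medium cancel out, so these correlations cannot decide whether the numbers mark pairs. With a replicate block, limma called 1263 higher and 1710 lower, and the median log2 fold change of the 25 genes from same-numbered ratios was 3.78. Tests on recovered reads with count models were not run, since the deposited unit is RPKM. Genes with 1 to 3 reads on glucose limit the precision of genes 5 and 14.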
